A study of Sus scrofa with 12 samples.

Results

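The striated muscle miRNAs miR-1, miR-133a, miR-133b, miR-206, miR-208b and miR-499 were followed in small RNA libraries of the neonatal pig uterus. They were chosen by name, with every arm and every precursor row kept, and made up 10 rows (8 names) of the 420 rows (362 names) in the deposited expression table. Of these 10 rows, 8 (6 names) were above the deposited floor in at least 1 library. The other 2, miR-208b and miR-499-3p, were at the floor in all 12.

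The uteri came from gilts, which are young female pigs, of a Landrace, Yorkshire, Duroc and Hampshire cross. The PND2N gilts (n = 4) nursed for 48 h after birth and the PND2R gilts (n = 4) drank a commercial milk replacer over the same time, and the uteri of these 8 animals were taken at 50 h of age, on postnatal day 2. The PND0 gilts (n = 4) were collected within 1 h of birth without having nursed. All 3 groups gave trimmed whole uterus, in which muscle, stroma, gland, vessel and any adhering tissue were read together, so fewer cells of a type and less RNA per cell cannot be told apart. The comparison of the PND2 groups with PND0 asked what changes over the first days of life, and it cannot tell age apart from having been fed. The comparison of PND2N with PND2R asked about milk against replacer at 1 age.

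These miRNAs are named for skeletal and heart muscle, where they are abundant, and miR-1 and miR-133a are also made in smooth muscle, which forms the outer wall of the uterus. miR-1 and miR-206 share a seed, the stretch near the 5′ end that pairs with target mRNAs, and both promote muscle differentiation; miR-206 is the member most confined to skeletal muscle. miR-133a and miR-133b have another seed in common, differ little in sequence and act on proliferation and differentiation of muscle cells. miR-499 and miR-208b have seeds much like each other's and lie within myosin heavy chain genes. In the RefSeq gene table for the pig assembly Sscrofa11.1, MIR133A-1 was the nearest miRNA gene to MIR1, and MIR133B was the nearest to MIR206. MIR133A-2 lay within MIB1, MIR499 within MYH7B and MIR208B within MYH7.

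Depth set how much could be seen of each member. The libraries held 37462 to 12159233 miRNA reads. The 4 libraries under 100000 reads were PND2N replicate 2 and PND2R replicates 1, 2 and 3, and none was PND0. Levels are given in rpm, reads per 1000000 miRNA reads of the library. One read was worth 26.7 rpm in the shallowest library and 0.0822 rpm in the deepest. miR-143 and miR-145 are abundant in smooth muscle of any organ. Their 4 rows summed to 163532 to 291202 rpm in PND2N, 180983 to 209535 in PND2R and 94917 to 177831 in PND0. Smooth muscle content itself was not measured. The liver miRNA miR-122 stood at 13.4 rpm or less in every library.

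miR-1 made up most of the reads of the set in every library. It took 72.2% to 88.4% of the reads in the member rows of the 8 PND2 libraries and 66.6% to 78.0% of those in the 4 PND0 libraries, and it ranked between the 37th and the 58th most abundant row of a library. miR-499-5p came next at 267 to 521 rpm over all 12 libraries, then miR-133a-3p at 26.7 to 272 rpm. The ranges of these 2 overlapped over all libraries, although miR-499-5p had the more reads of the 2 in each library. miR-133b, miR-133a-5p and miR-206 lay below, and their order was not separated by the spread: in PND0 they averaged 21.0 ± 5.22, 12.5 ± 3.93 and 26.2 ± 9.35 rpm (SD, n = 4). Reads also depend on how well each miRNA is ligated into a library, so the order is one of reads.

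Summed over all member rows, the set took 0.515%, 0.299%, 0.336% and 0.355% of the miRNA reads in PND2N replicates 1 to 4. It took 0.484%, 0.309%, 0.379% and 0.436% in PND2R replicates 1 to 4, and 0.331%, 0.337%, 0.257% and 0.231% in PND0 replicates 1 to 4. The PND2 libraries reached higher than any PND0 library, and the ranges overlapped. These sums follow miR-1, and no test was made of them because the members were chosen with earlier results known.

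miR-1 (ssc-miR-1 in the table), the most abundant member, had 50213, 99, 22648 and 685 reads in PND2N replicates 1 to 4, which are 4253, 2643, 2696 and 2824 rpm. It had 293, 156, 140 and 32802 reads in PND2R replicates 1 to 4, or 3917, 2234, 2917 and 3491 rpm. In PND0 replicates 1 to 4 it had 1171, 9376, 24008 and 579 reads, or 2521, 2632, 1974 and 1540 rpm. Every PND2N library lay above every PND0 library, although the nearest pair stood at 2643 rpm (99 reads) and 2632 rpm, closer than counting error (exact 95% interval of the first 2148 to 3216 rpm). PND2R replicate 2 lay below PND0 replicates 1 and 2, and 30 of the 32 PND2 and PND0 pairs of libraries had the PND2 library higher.

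With both PND2 groups averaged against PND0, limma gave miR-1 a log2 fold change of 0.53 ± 0.20 (SE) on log2(rpm + 10), with an adjusted p of 0.655 (Benjamini-Hochberg over the 268 rows tested). On recovered reads edgeR gave 0.61 ± 0.20 with an adjusted p of 0.440. The difference did not pass the threshold of 0.05 by either tool, and 0 of the 8 member rows did, where 0% of all 268 rows passed. Without the 4 libraries under 100000 reads the limma value was 0.65 ± 0.25.

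miR-206 (ssc-miR-206), the skeletal muscle member that shares the seed of miR-1, stood highest in PND0. It had 39, 0, 99 and 0 reads in PND2N replicates 1 to 4, and 1, 0, 0 and 82 in PND2R replicates 1 to 4. In PND0 replicates 1 to 4 it had 16, 112, 311 and 5 reads. In rpm the libraries with reads stood at 3.30 and 11.8 in PND2N replicates 1 and 3, at 13.4 and 8.73 in PND2R replicates 1 and 4, and at 34.4, 31.4, 25.6 and 13.3 in PND0 replicates 1 to 4. All 4 PND2N libraries lay below all 4 PND0 libraries. Of the PND2R libraries only replicate 1, on a single read, was above a PND0 library, which itself had 5 reads (95% exact binomial interval 4.32 to 31.0 rpm).

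The zeros of miR-206 differed in what they can show. At the median PND0 level of 28.5 rpm, 1.07 reads would have been expected in PND2N replicate 2, 1.99 in PND2R replicate 2 and 1.37 in PND2R replicate 3. Each of those 3 zeros alone falls within counting error, and the 3 together were not tested. In PND2N replicate 4 the same level corresponds to 6.92 reads, against at most 1 read hidden by the floor. In the 3 deep PND2 libraries the median PND0 level corresponds to 337 reads against 39 found (PND2N replicate 1), 239.5 against 99 (PND2N replicate 3) and 268 against 82 (PND2R replicate 4). The lower level of miR-206 at postnatal day 2 therefore rests mainly on these 4 libraries, 3 of them PND2N and 1 PND2R.

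**Figure D1:**
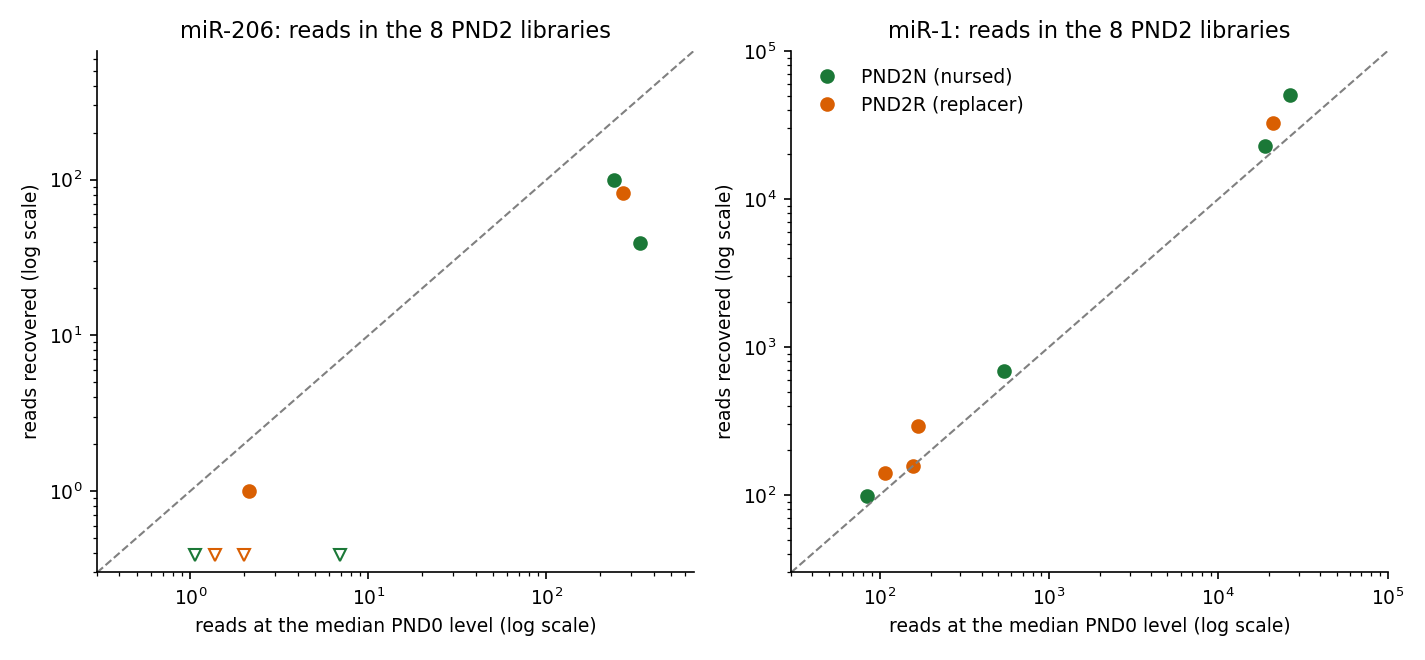
Reads recovered in each of the 8 PND2 libraries (vertical, log scale) against the reads that the median PND0 level would give at that library's depth (horizontal, log scale), for miR-206 (left) and miR-1 (right); the dashed line marks equality and open triangles mark libraries with 0 reads. For miR-206 the 3 deep libraries fall below the line, with 39, 99 and 82 reads, while for miR-1 7 of the 8 libraries lie above it and PND2R replicate 2, with 156 reads against 157, lies on it.

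For miR-206 the averaged PND2 against PND0 fold change was -1.36 ± 0.31 on the log2 scale by limma (adjusted p = 0.164) and -1.79 ± 0.44 by edgeR (adjusted p = 0.0663). It was the member with the smallest p by both tools. It passed in 1 alternative, limma with a weight for each library, at -1.35 ± 0.27 (adjusted p = 0.0327), where it was the only row of 268 called. The size on this scale follows the pseudocount, from -0.48 with 50 rpm to -3.07 with 1 rpm. Without the libraries under 100000 reads it was -1.11 ± 0.30 (adjusted p = 0.475).

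**Figure D2:**
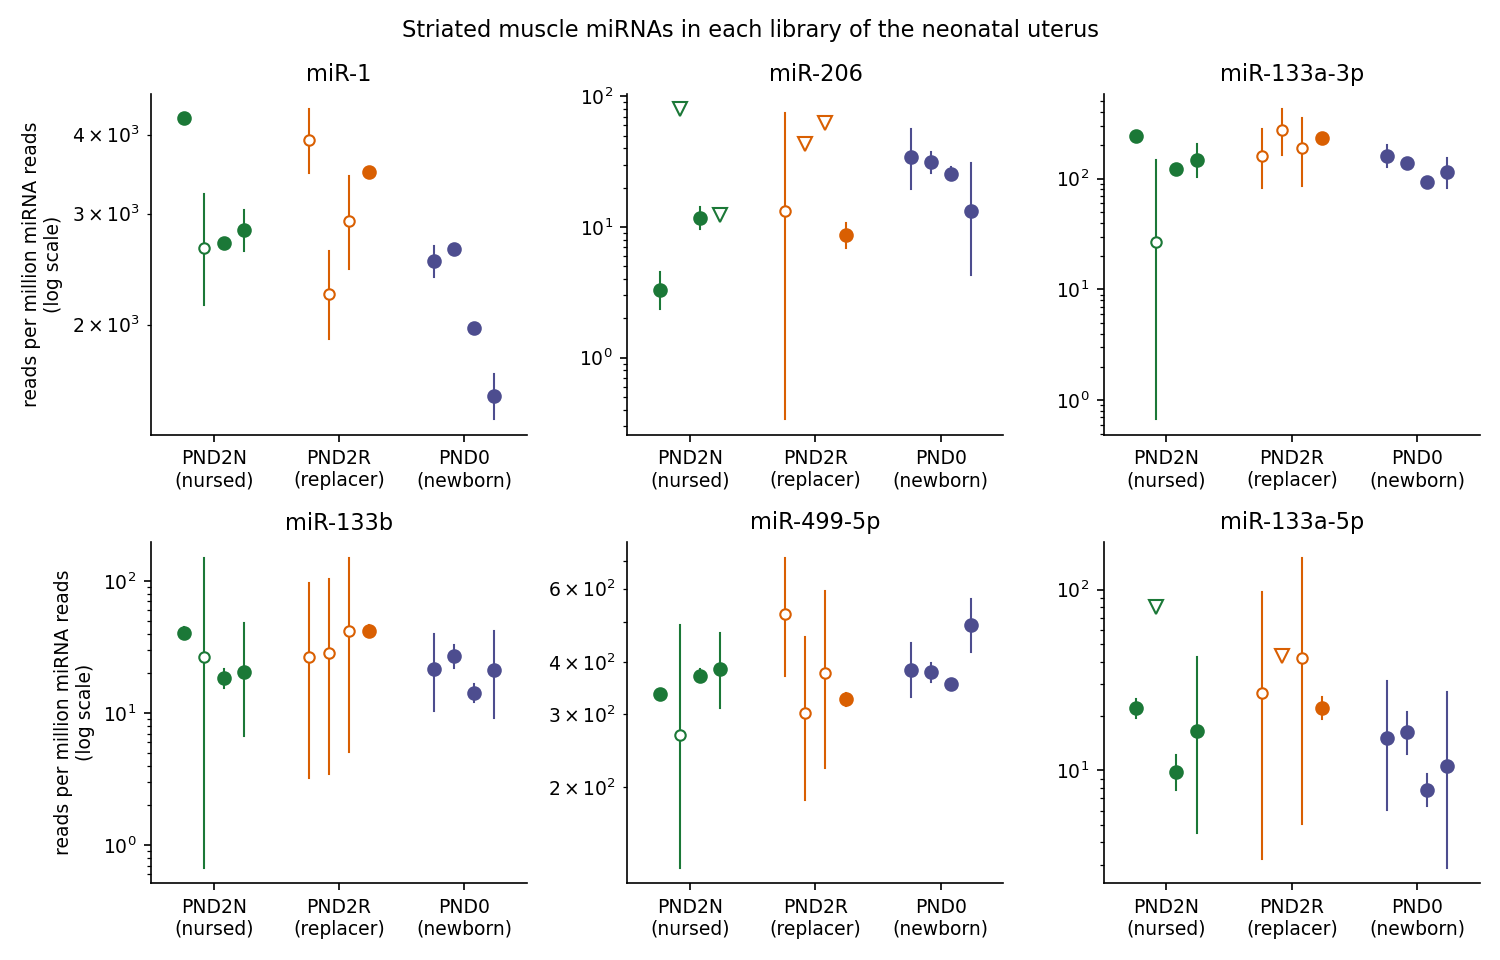
Level of each measured member in every library, in reads per 1000000 miRNA reads on log axes that differ between panels, with bars for the 95% exact binomial interval; open circles are libraries under 100000 reads, and open triangles stand for libraries at the floor, placed at the larger of 3 reads and the reads the floor can hide. miR-1 reaches 4253 rpm in PND2N and does not exceed 2632 rpm in PND0, miR-206 is highest in PND0, and miR-499-5p covers much the same range in all 3 groups.

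The ratio of miR-206 to miR-1 within a library does not depend on the library total. It was 0.0777 miR-206 reads per 100 miR-1 reads in PND2N replicate 1 and 0.437 in PND2N replicate 3. It was 0.341 in PND2R replicate 1 and 0.250 in PND2R replicate 4, and 0 in the other 4 PND2 libraries. In PND0 replicates 1 to 4 it was 1.37, 1.19, 1.295 and 0.864. All 8 PND2 libraries lay below all 4 PND0 libraries, and the PND0 values averaged 1.18 ± 0.222 (SD, n = 4), against 0.138 ± 0.179 in PND2 (SD, n = 8). The exact 95% intervals of the 3 deep PND2 libraries, 0.0552 to 0.106, 0.355 to 0.532 and 0.199 to 0.310, lay below those of PND0 replicates 2 and 3, at 0.982 to 1.44 and 1.15 to 1.45. These intervals cover counting error and leave out the spread between animals. Those of PND2N replicates 1 and 3 lay apart from each other within 1 group. The interval of PND0 replicate 4, on 5 reads, was 0.279 to 2.03 and overlapped those of PND2N replicate 3 and PND2R replicate 4. For the zeros in PND2N replicate 2 and PND2R replicates 2 and 3 the intervals reached 2.39 to 3.80, and for the single read of PND2R replicate 1 the interval reached 1.92, so that these 4 took in all PND0 values. That of PND2N replicate 4 reached 0.816 with 1 hidden read allowed, and overlapped those of PND0 replicates 1 and 4. Both this ratio and the next were picked after their values were seen, so they are described without a test. Both also fall as miR-1 rises, and ratios to miR-1 of rows outside the set were not computed.

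miR-499-5p (ssc-miR-499-5p), the arm of the MYH7B miRNA that was detected, had overlapping levels in the 3 groups. It stood at 335, 267, 370 and 383 rpm in PND2N replicates 1 to 4, at 521, 301, 375 and 325 rpm in PND2R replicates 1 to 4, and at 383, 377.6, 353 and 489.5 rpm in PND0 replicates 1 to 4. PND2R replicate 1 was the highest library and PND2N replicate 2 the lowest, on 10 reads. The averaged fold change was -0.17 ± 0.20 by limma (adjusted p = 0.866) and -0.07 ± 0.19 by edgeR (adjusted p = 0.991), where the median over all 268 rows was -0.13 by limma and -0.03 by edgeR.

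Set against miR-1, the read ratio of miR-499-5p was below every PND0 value in all 8 PND2 libraries, most of them within counting error. This ratio also falls as miR-1 rises, and in 30 of 32 pairs miR-1 was higher in the PND2 library than in the PND0 one. Ratios of rows outside the set to miR-1 were not computed, so no share over all rows stands beside it. There were 7.87, 10.1, 13.7 and 13.6 miR-499-5p reads per 100 miR-1 reads in PND2N replicates 1 to 4, and 13.3, 13.5, 12.9 and 9.30 in PND2R replicates 1 to 4. PND0 replicates 1 to 4 gave 15.2, 14.3, 17.9 and 31.8. The highest PND2 value and the lowest PND0 value, 13.7 and 14.3, are close, and their intervals (13.2 to 14.3 and 13.5 to 15.2) overlap. Only the intervals of PND2N replicate 1 (7.61 to 8.13) and PND2R replicate 4 (8.96 to 9.66) lay clear of all PND0 intervals, and those of the other 6 PND2 libraries overlapped at least 1 of them. PND0 replicate 4, the library with the least miR-1, stood far above the rest. The other arm, miR-499-3p, and miR-208b, the miRNA of the heart and slow muscle myosin gene MYH7, were at the floor in every library. In the 3 deep PND2 libraries and PND0 replicates 2 and 3 the floor hides at most 1.12 rpm of either.

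**Figure D3:**
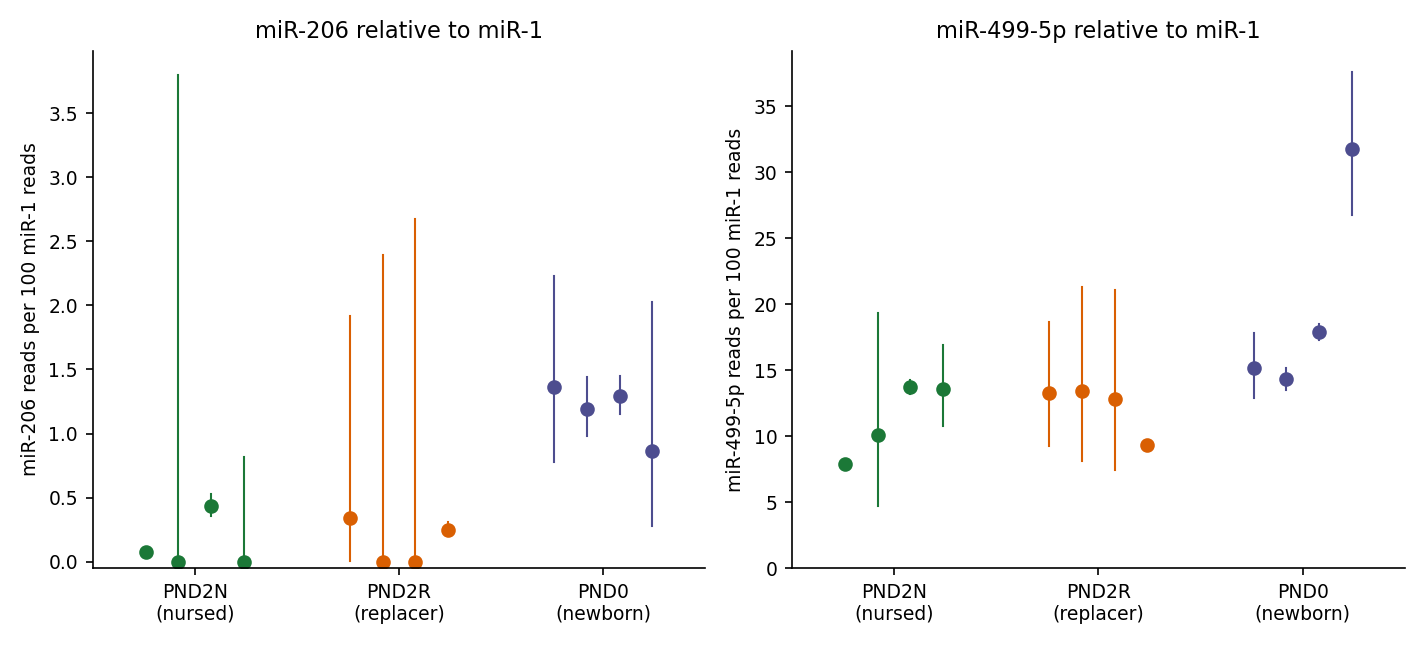
Reads of miR-206 (left) and of miR-499-5p (right) per 100 reads of miR-1 in each library, on linear axes, with bars for the 95% exact binomial interval. For miR-206 the 4 PND0 libraries sit between 0.864 and 1.37 and the 8 PND2 libraries at 0.437 or less; for miR-499-5p the PND0 libraries sit between 14.3 and 31.8 and the PND2 libraries at 13.7 or less.

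miR-133a-3p (ssc-miR-133a-3p) was listed in 2 rows, one for each precursor, with almost the same counts: the second row had 94.4 to 100 reads per 100 reads of the first over the 12 libraries. The 2 rows can hold the same reads and are not separate measurements, and only the more abundant is followed here. It had 2867, 1, 1018 and 36 reads in PND2N replicates 1 to 4, which are 243, 26.7, 121 and 148 rpm. It had 12, 19, 9 and 2169 reads in PND2R replicates 1 to 4 (160, 272, 188 and 231 rpm), and 75, 494, 1126 and 43 reads in PND0 replicates 1 to 4 (161, 139, 92.6 and 114 rpm). In 15 of 16 pairs the PND2R library was above the PND0 one, and PND2N spanned the whole PND0 range.

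For PND2R against PND0 the log2 fold change of miR-133a-3p was 0.70 ± 0.47 by limma (adjusted p = 0.702) and 0.80 ± 0.32 by edgeR (adjusted p = 0.453). For PND2N against PND0 its sign depended on PND2N replicate 2, in which it had 1 read: limma gave -0.19 ± 0.47 with that library and 0.37 without it, and edgeR, which gives a shallow library less weight, gave 0.45 ± 0.30 (adjusted p = 0.989). Averaged over both PND2 groups it was 0.26 ± 0.41 by limma and 0.62 ± 0.27 by edgeR (adjusted p = 0.872 and 0.569). Set against its neighbour miR-1, miR-133a-3p had 1.0101 to 5.71 reads per 100 miR-1 reads in PND2N, 4.10 to 12.2 in PND2R and 4.69 to 7.43 in PND0, so the groups overlapped.

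miR-133b (ssc-miR-133b), which lies beside MIR206 in the genome, did not follow miR-206. It had 480, 1, 154 and 5 reads in PND2N replicates 1 to 4, 2, 2, 2 and 393 in PND2R replicates 1 to 4, and 10, 96, 173 and 8 in PND0 replicates 1 to 4. Its level averaged 26.6 ± 10.03 rpm in PND2N, 34.7 ± 8.15 in PND2R and 21.0 ± 5.22 in PND0 (SD, n = 4 each), and the ranges overlapped. The averaged fold change was 0.37 ± 0.25 by limma (adjusted p = 0.722) and 0.72 ± 0.31 by edgeR (adjusted p = 0.569), of the sign opposite to that of miR-206. In the 3 deep PND2 libraries there were 8.13, 64.3 and 20.9 miR-206 reads per 100 miR-133b reads, against 160, 117, 180 and 62.5 in PND0 replicates 1 to 4. PND0 replicate 4, on 5 and 8 reads, lay below PND2N replicate 3, so the groups overlapped on this ratio.

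Between libraries with at least 5 reads of miR-133b, its ratio to miR-133a-3p varied less than the ratio of miR-206 to miR-133b. miR-133a-3p and miR-133b differ little in sequence, and reads of the one can be counted for the other. In these libraries miR-133b had 16.7, 15.1 and 13.9 reads per 100 miR-133a-3p reads in PND2N replicates 1, 3 and 4, 18.1 in PND2R replicate 4, and 13.3, 19.4, 15.4 and 18.6 in PND0 replicates 1 to 4. The libraries left out, with 1 or 2 reads of miR-133b, ran from 10.5 to 100. The miR-133a-5p arm was scarce. The more abundant of its 2 rows averaged 12.1 ± 9.51 rpm in PND2N, 22.7 ± 17.2 in PND2R and 12.5 ± 3.93 in PND0 (SD, n = 4 each), with 0 reads in PND2N replicate 2 and PND2R replicate 2. Its averaged fold change was 0.10 ± 0.41 by limma (adjusted p = 0.976) and 0.67 ± 0.40 by edgeR (adjusted p = 0.779).

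**Figure D4:**
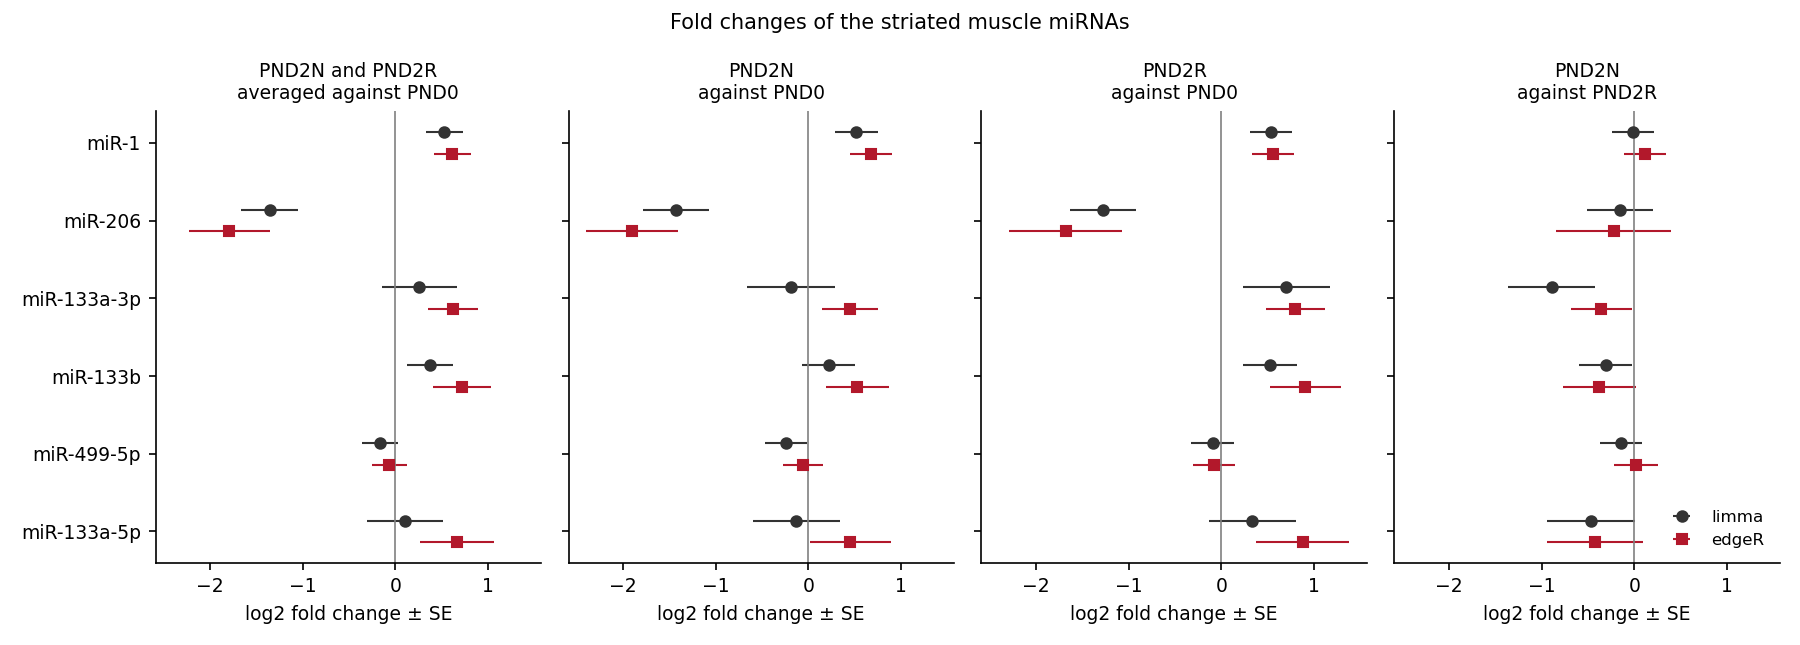
Log2 fold change of 6 members with its standard error (horizontal) in 4 comparisons (panels), by limma on log2(rpm + 10) (circles) and by edgeR on recovered reads (squares); values above 0 are higher in the group named first. miR-206 lies at -1.36 and -1.79 in the averaged comparison and miR-1 at 0.53 and 0.61; the PND2N against PND0 and PND2R against PND0 panels share the same 4 PND0 libraries.

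Within each age comparison the counts were these. For PND2N against PND0, 1 of the 8 member rows tested, miR-1, lay higher without overlap, where 0.746% of all 268 rows did. Another 1, miR-206, lay lower without overlap, where 2.99% did. For miR-206 this takes the 0 reads of PND2N replicates 2 and 4 as lower. A single read in PND2N replicate 2 would be 26.7 rpm, above PND0 replicates 3 and 4 (25.6 and 13.3 rpm). For PND2R against PND0, 1 row, the less abundant row of miR-133a-3p, lay higher without overlap (2.99% of all rows) and 0 lower (4.48%). Both comparisons use the same PND0 libraries. By limma and by edgeR 0 of the 8 rows passed in either, where 0% of all rows did. With both PND2 groups together against PND0, 0 rows of the 8 and 0% of all rows lay higher or lower without overlap.

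At an unadjusted p under 0.05, edgeR had 4 members on the higher side in the averaged comparison (5.22% of all rows), which were miR-1, miR-133b and both rows of miR-133a-3p, and 1, miR-206, on the lower side (2.61%). Limma had 1, miR-1, on the higher side (1.49%) and 1, miR-206, on the lower (4.48%). For PND2N against PND0 both tools had miR-1 alone on the higher side (1.49% of all rows by limma, 3.36% by edgeR) and miR-206 alone on the lower (6.72% and 2.99%). For PND2R against PND0 limma had miR-1 on the higher side (3.73%) and miR-206 on the lower (7.09%), and edgeR the same 4 rows as in the averaged comparison on the higher side (5.22%) and miR-206 on the lower (5.22%). The 3 miR-133 rows among these 4 can hold the same reads, which was not tested, so they are not counted as separate measurements.

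Between nursed and replacer-fed gilts no member separated the groups. miR-1 averaged 3104 ± 769.6 rpm in PND2N and 3140.0 ± 729.6 in PND2R (SD, n = 4 each), and PND2N was higher in 7 of 16 pairs of libraries. Its log2 fold change was -0.01 ± 0.23 by limma (adjusted p = 0.979) and 0.12 ± 0.23 by edgeR (adjusted p = 0.928). miR-206 averaged 3.77 ± 5.56 rpm in PND2N and 5.52 ± 6.65 in PND2R, with 2 libraries of each group at the floor (limma -0.15 ± 0.36, adjusted p = 0.839).

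By limma the member furthest from 0 between the feeding groups was miR-133a-3p, at 135 ± 88.9 rpm in PND2N and 213 ± 49.1 in PND2R (SD, n = 4 each). Limma gave -0.89 ± 0.47 (adjusted p = 0.435) and edgeR -0.35 ± 0.33 (adjusted p = 0.928), where edgeR put miR-133a-5p at -0.42 and miR-133b at -0.38. Without PND2N replicate 2, with its 1 read, the limma value was -0.33. Of the 8 rows 0 passed by limma or edgeR (0% of all 268 rows), and 0 were free of overlap (0.746% of all rows higher, 5.22% lower). At an unadjusted p under 0.05 there were 0 members by either tool, against 3.36% of all rows higher and 9.7% lower by limma, and 4.1% higher and 3.36% lower by edgeR. Because 3 of the 4 PND2R libraries are shallow, feeding and depth cannot be told apart for the scarce members.

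Other miRNAs with known roles in muscle were counted beside the set, with no test between the lists. Their list, chosen with earlier results of these data known, held 30 rows in the table, of which 29 were tested. By limma and edgeR 0 passed in either direction in the averaged PND2 against PND0 comparison. By edgeR 12 lay above 0 and 17 below, with a median of -0.04, where the 8 striated muscle rows had 6 above and 2 below with a median of 0.62 and all 268 rows had a median of -0.03. Those 6 rows are miR-1 and the rows of miR-133a and miR-133b, some of which can hold the same reads. Neither the count of 6 nor the median of 0.62 therefore rests on separate measurements. By limma the medians were -0.20 for the list, 0.18 for the striated muscle rows and -0.13 for all rows. For PND2N against PND0 by limma the medians lay on the same side. The list had 6 rows above 0 and 23 below (median -0.20), the striated muscle rows 2 above and 6 below (median -0.16). Over all rows the median was -0.20. By edgeR they lay on different sides in that comparison. The list had 10 above and 19 below (median -0.13), the striated muscle rows 6 above and 2 below (median 0.45). Over all rows the edgeR median was -0.05.

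The highest row of the list by limma was the smooth muscle miR-145-5p, at 9687 ± 5776 rpm in PND2N, 13201 ± 5539 in PND2R and 7330 ± 2570 in PND0 (SD, n = 4 each; log2 fold change 0.56 ± 0.36, adjusted p = 0.718). The lowest was miR-27b-5p, at 26.997 ± 18.2 rpm in PND2N, 19.5 ± 13.5 in PND2R and 45.5 ± 8.33 in PND0 (-0.95 ± 0.46, adjusted p = 0.655). The summed smooth muscle miRNAs, led by miR-143-3p, averaged 208318 ± 59800 rpm in PND2N, 192508 ± 13468 in PND2R and 143046 ± 36424 in PND0. Most of that sum is miR-143-3p alone, at 196907, 177249 and 133901 rpm in the same order. Of the rows summed, only miR-145-3p, the other arm of miR-145, was highest in PND0. It averaged 537 ± 161 rpm in PND2N, 563 ± 72.5 in PND2R and 733 ± 421 in PND0 (limma -0.29 ± 0.28, adjusted p = 0.860). The part of the smooth muscle miRNAs in the level of miR-1 was not tested.

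Markers of other cells in the wall are given beside miR-206, whose level was highest in PND0. The endothelial miR-126 rows summed to 11588 ± 1620 rpm in PND2N, 10992 ± 1111 in PND2R and 14263 ± 1471 in PND0 (SD, n = 4 each). The 3 red cell rows, led by miR-451, summed to 282 ± 154 rpm in PND2N, 325 ± 162 in PND2R and 461 ± 102 in PND0. The 2 epithelial rows, led by miR-205, summed to 633 ± 318 rpm in PND2N, 832 ± 170.2 in PND2R and 1007 ± 114 in PND0. The 6 neuronal rows, led by miR-218-5p, summed to 3420 ± 579 rpm in PND2N, 4116 ± 566 in PND2R and 4445 ± 476 in PND0. Most of that sum is miR-218-5p alone, at 3232, 3933 and 4238 rpm in the same order, so it says little of the other rows. The 5 leukocyte rows, led by miR-155-5p, of which 1 was at the floor throughout, summed to 342 ± 105 rpm in PND2N, 444 ± 65.9 in PND2R and 418 ± 48.1 in PND0. The liver miR-122 averaged 2.77 ± 3.99 rpm in PND2N, 3.95 ± 6.38 in PND2R and 4.79 ± 3.64 in PND0. Of these lists, the endothelial, red cell, epithelial, neuronal and liver ones had their highest average in PND0, as miR-206 did, and the leukocyte one in PND2R. In the averaged comparison 192 of all 268 rows tested lay below 0 by limma and 146 by edgeR. A higher level in PND0 was therefore common among all rows, not only in these lists. It held for most rows by limma (median log2 fold change -0.13), and by edgeR the split was close to even (median -0.03). The liver list is 1 row, at 13.4 rpm or less in every library. The part of these lists in the miR-206 difference was not tested.

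The rows whose levels ran most like a member's were sought over the 8 libraries above 200000 reads, of which 4 are PND0, 3 PND2N and 1 PND2R, among 148 rows outside the set with at least 10 reads in each. For miR-1 they were both rows of miR-378, a miRNA linked to metabolism (Spearman's rho = 0.93 for each), then miR-145-5p, miR-18a and miR-21 (0.71 each). For miR-133a-3p they were miR-18a (0.90), both rows of miR-378 (0.81), miR-30b-5p (0.79) and miR-143-5p (0.64). miR-206 ran with other miRNAs: the 2 arms of the endothelial miR-126 came first (1.00 for miR-126-5p and 0.90 for miR-126-3p), then miR-144 (0.83), miR-98 (0.81) and miR-218-5p (0.79). The minimum of 10 reads was not asked of miR-206 itself. It was ranked at the floor in PND2N replicate 4, and on only 5 reads in PND0 replicate 4. A single read hidden by that floor would be 4.12 rpm, above the 3.30 rpm of PND2N replicate 1. The ranks behind its rho of 1.00 are therefore not certain.

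Within the set over the same 8 libraries, miR-1 and miR-133a-3p had a rho of 0.81, miR-133a-3p and miR-133b 0.81, miR-1 and miR-206 -0.71, and miR-206 and miR-133b -0.12. Over all 12 libraries, where shallow ones enter, miR-126-5p and miR-206 had a rho of 0.67 and miR-378 and miR-1 0.70. These correlations are descriptions, since the first of many rows was picked each time, every point shares its library total, and the PND0 libraries make up 4 of the 8 points. Those of miR-206 also rank its value at the floor in PND2N replicate 4, and over all 12 libraries 4 such values.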

How the data were processed

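Per the labels' protocols, libraries were made from 500 ng of total RNA of each of 12 uteri (NEBNext small RNA set, 6 cycles of PCR) and read as 50 bp single ends on an Illumina HiSeq. Sscrofa10.2 and FastQC are named in the submitters' processing notes; the aligner, counter and scaling are not given in the sources used here. From its values, the signal that the authors deposited appears to hold read counts scaled by 1 factor for each library, in which anything below 1 was set to 1. Dividing each library by its smallest step gave read numbers that were whole within 0.1 read for 100% of values up to 1000 reads and, in the lowest library, for 95.9% over the full range. The floor hides up to 12 reads in a library, and values at it entered as 0. Groups come from the feeding label; replicates were numbered in accession order, which pairs no samples. Litter and batch are not in the labels. No 2 columns were identical, and replicate pairs differed beyond sampling noise (chi-square per degree of freedom 2.98 to 1093 over 18 pairs).

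The test was limma 3.58.1 (trend, R 4.3.3) on log2(rpm + 10) with all 12 libraries, 3 group coefficients and 9 residual df. It was two-sided, with Benjamini-Hochberg adjustment over the 268 rows that 4 or more libraries had over the floor, at a threshold of 0.05. The pseudocount makes fold changes of scarce miRNAs too small. edgeR 4.0.16 (quasi-likelihood, TMM), limma voom and DESeq2 1.42.0 on recovered reads were alternatives. Tests were tried on simulated counts, and no result given here rests on that trial. Intervals cover counting error only, since the labels name no molecular identifiers. Named were all members, the 5 rows most like miR-1, miR-133a-3p and miR-206, the extremes of the muscle list and the most abundant row of each marker list. The members and lists were chosen with earlier results of these data known. The likeness search gives no p. Gene neighbours came from RefSeq's Sscrofa11.1 table, with no coordinates, since it is another assembly. Figures were drawn with matplotlib 3.10.9.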

Additional observations from a re-analysis of the deposited data

Results flagged for a closer look

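Of 57 groups of 4 libraries examined (levels, sums and ratios), 4 held a library far from the other 3 of its group; chance gives about 1 in 20 groups. miR-1 in PND2N replicate 1, the deepest library of its group, stood at 4253 rpm against 2643 to 2824 in the other 3. The ratio of miR-499-5p to miR-1 in PND2R replicate 4, the deep library of its group, was 9.30 per 100 against 12.9 to 13.5. miR-133b stood at 100 reads per 100 miR-133a-3p reads in PND2N replicate 2, from 1 read of each. miR-206 stood at 64.3 reads per 100 miR-133b reads in PND2N replicate 3, on 99 and 154 reads, against 8.13 or less in the other 3 PND2N libraries, 2 of which had no miR-206 read. Without PND2N replicate 1 the limma log2 fold change of miR-1 between PND2N and PND0 was 0.36.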

How the results depend on the processing

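No paired analysis was possible because replicate numbers follow accession order. For PND2N against PND0, PND2R against PND0 and the averaged comparison the count of rows called was 0 in every setting, except 1 (miR-206) in the averaged comparison with library weights; for PND2N against PND2R it was 0 except 3 without PND2R replicate 4, so 0 to 3 over single libraries left out. At an unadjusted p under 0.05 there were 22, 29, 16 and 35 of the 268 rows by limma (PND2N against PND0, PND2R against PND0, averaged, PND2N against PND2R), 17, 28, 21 and 20 by edgeR, 15, 18, 17 and 18 by DESeq2 and 24, 36, 34 and 23 by voom, with 0 called by each tool. The muscle list had 0 called throughout, and the group differences in summed share moved by less than 1 SD between replicates. Settings with each library left out, other pseudocounts, filters, scalings and tools gave 521 member fold changes on the same side with the same call, 1 past the threshold (miR-206, -1.35, adjusted p = 0.0327, library weights) and 40 of the other sign, none past the threshold; the cause was not tested. In PND2N against PND0, miR-133a-3p and miR-133a-5p were 0.45 and 0.45 by edgeR, 0.38 and 0.35 by DESeq2, 0.56 and 0.60 by voom, 0.26 and 0.092 with library weights, and 0.37 and 0.21 without the libraries under 100000 reads. Deposited values as they stand, in which the median over all rows was -0.49 for PND2N against PND0, -0.58 for PND2R against PND0 and -0.55 averaged, gave miR-133b -0.025 in PND2N against PND0, miR-1 -0.073 in PND2R against PND0 and miR-133a-3p -0.21 averaged. A pseudocount of 1 gave miR-133a-5p -0.013 in PND2R against PND0 and -0.35 averaged. In PND2N against PND2R, miR-1 was 0.12 by edgeR, 0.11 by DESeq2, 0.10 by voom, 0.22 on deposited values and 0.099 with library weights. There miR-499-5p was 0.018 by edgeR, 0.082 by voom, 0.090 on deposited values and 0.15 without the shallow libraries, and miR-206 was 0.013 on deposited values and 0.0088 with library weights. Leaving out single libraries gave ranges that crossed 0: in PND2N against PND0 miR-133a-3p -0.56 to 0.37 and miR-133a-5p -0.35 to 0.21; in PND2R against PND0 miR-499-5p -0.25 to 0.0047; averaged, miR-133a-5p -0.046 to 0.35; in PND2N against PND2R miR-1 -0.18 to 0.10, miR-499-5p -0.24 to 0.014 and miR-206 -0.40 to 0.082. The difference in summed share ranged from 409 (without PND2N replicate 1) to 1131 rpm for PND2N minus PND0 (873 with all libraries), from 859.8 to 1442 for PND2R minus PND0 (1132) and from -723 to 12.9 for PND2N minus PND2R (-259), where the sign turned without PND2R replicate 1 and the low end is without PND2N replicate 1. Keeping only rows above the floor in all libraries drops miR-206 and miR-133a-5p, and the averaged comparison has no fit on 2 groups alone. Depth limits the scarce members in the 4 shallow libraries, 3 of them PND2R.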
